A study of Mus musculus with 6 samples.

Results

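Genes of IL-10 and TGF-beta signalling were examined in macrophages sorted from young and aged skin wounds. The members were 10 genes chosen by name, Il10, Il10ra, Il10rb, Tgfb1, Tgfbr1, Tgfbr2, Smad3, Smad7, Tgfbi and Inhba, and all 10 were among the 15168 genes of the count table. The study asked how ageing alters wound macrophages. RNA was sequenced in bulk from 3 young (12 weeks) and 3 aged (24 months) samples of C57BL/6J wild-type female mice, all taken on Day 3 after 2 full-thickness wounds of 10 mm had been made on the back. No transgene or drug distinguished the ages. Cells were sorted as live CD45+CD11b+F4/80+CD64+ macrophages, with no gate against the neutrophil protein Ly6G, and cDNA was made from small amounts of RNA. Sets A, B and C each held 1 sample of either age. Aged B stood apart in keratinocyte transcripts, which summed to 180.3 CPM (counts relative to the scaled library size) there and to 2.05 to 9.81 CPM in the other samples. Mast cell transcripts summed to 1.02 CPM in aged B and 0.93 CPM in aged C. They summed to 67.5 CPM in aged A, within the young range of 26.8 to 97.8 CPM. The labels do not say whether each sample was a separate animal or a pool, so p-values measure the spread between these samples.

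IL-10 is an anti-inflammatory cytokine that macrophages both make and respond to, through a receptor of an IL-10-binding chain (IL10RA) and a shared chain (IL10RB) that act on STAT3. TGF-beta and activin are secreted dimers of one family that bind type II receptors, recruit type I receptors and activate SMAD2 and SMAD3. In skin wounds, macrophage TGF-beta and activin act on fibroblasts and keratinocytes as inflammation gives way to repair.

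Transcripts of the activin subunit Inhba and of the ligand Tgfb1 rose with age, by 4.57-fold and 2.00-fold, and those of the shared receptor chain Il10rb rose by 1.49-fold. The remaining 7 members did not pass the test, and mean Il10 was 36.4 CPM in the young group and 35.7 CPM in the aged group. Of the 10 members, all of which passed the filter on low counts, 3 were called higher in aged samples, against 9.73% of the 11878 genes tested. Called genes had a Benjamini-Hochberg adjusted p-value under 0.05 over all genes tested, from edgeR's quasi-likelihood test. The number called lower was 0 (edgeR; 7.97% of all genes tested), 0 members were lower at an unadjusted p under 0.05, and DESeq2 and limma-voom called 0 lower as well. With the added requirement of a change over 2-fold, Inhba and Tgfb1, the latter only just at a log2 value of 1.003, remained called (2 of 10, against 4.59% of all genes higher and 4.20% lower). All aged samples lay above all young samples for 6 members, Inhba, Tgfb1, Tgfbr1, Smad3, Il10ra and Il10rb (19.2% of all genes tested). The reverse held for 1 member, Tgfbr2 (19.0% of all genes). The members' median log2 fold change was 0.59, beside -0.02 over all genes tested. In bulk RNA, fewer cells of a type and less RNA per cell cannot be told apart, and the level of a gene is an average over the sorted cells.

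**Figure D1:**
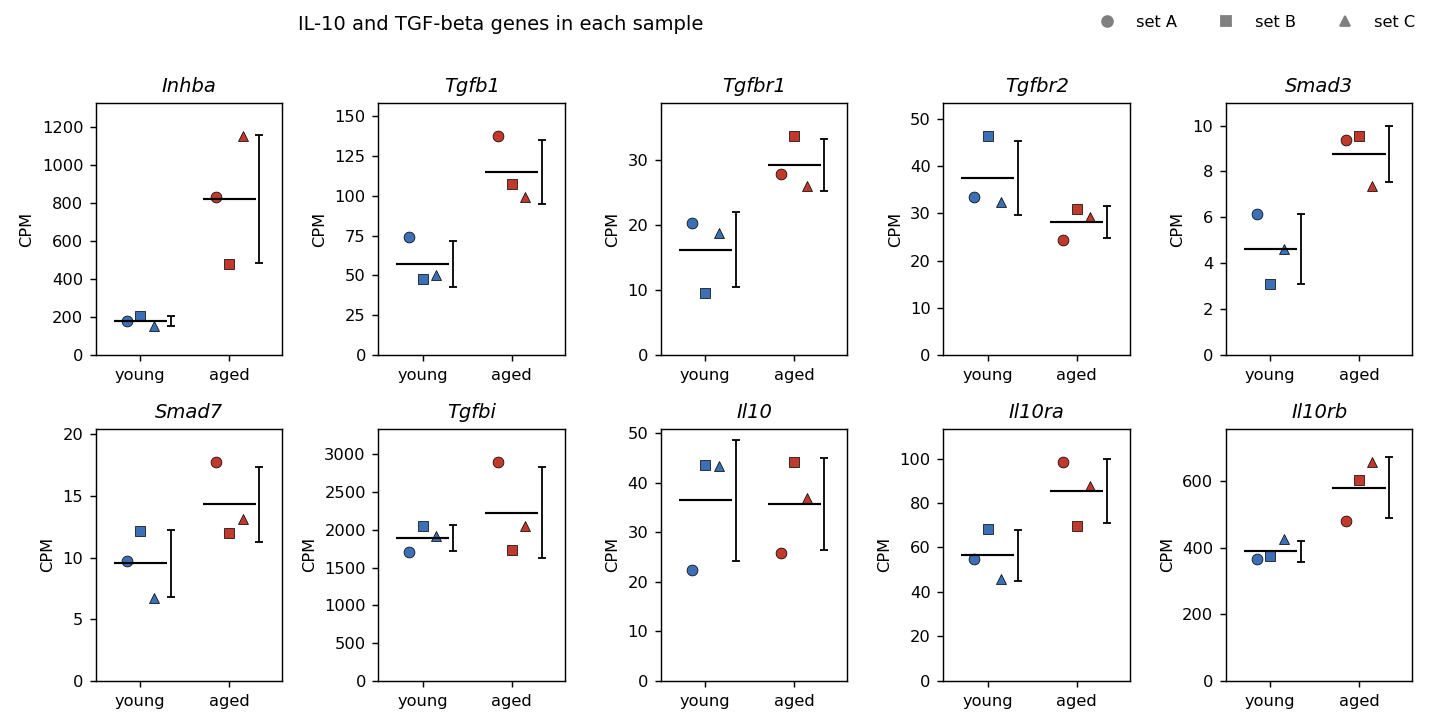
Level of each of the 10 genes (CPM, counts relative to the scaled library size; axes start at 0) in each young and aged sample, with marker shapes for the sets. Horizontal lines are means and the brackets are ± SD (n = 3); Inhba ran from 154 to 208 CPM in young and from 480.3 to 1153 CPM in aged samples, while the Il10 samples of both ages overlap.

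Inhba encodes the beta A chain, a pair of which forms activin A. The gene lies on chromosome 13 of mm10 from 16011851 to 16031622, on the plus strand. Its level was 178, 208 and 154 CPM in young samples A, B and C, and 830.2, 480.3 and 1153 CPM in aged samples A, B and C. Every aged sample was more than 2-fold above every young sample, and the aged samples were spread more widely than the young ones. The mean was 179.8 ± 27.0 CPM in the young group and 821 ± 336 CPM in the aged group (SD, n = 3). The log2 fold change was 2.19 (standard error, SE, 0.29, 95% interval 1.54 to 2.84, edgeR adjusted p = 0.00288). Inhba kept an adjusted p-value under 0.05 in every one of the 6 edgeR fits with 1 sample left out, with adjusted p-values from 0.00053 to 0.0342. Among all genes tested, it stood at position 727 by mean CPM in young and at position 193 in aged samples.

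Tgfb1 encodes the main TGF-beta ligand of macrophages and lies on the plus strand of chromosome 7, from 25687002 to 25705078 (mm10). It was measured at 74.0, 47.9 and 50.1 CPM in young samples A, B and C and at 138, 108 and 99.4 CPM in the aged samples. All aged samples were above all young samples, and set A was the highest of each age. The mean was 57.3 ± 14.4 CPM in the young group and 115 ± 20.2 CPM in the aged group, a log2 change of 1.003 (SE 0.21, 95% interval 0.54 to 1.47, edgeR adjusted p = 0.0149). When each sample was left out in turn (6 fits), edgeR called Tgfb1 in 4. Its adjusted p was 0.0578 without young B and 0.0845 without young C, with log2 fold changes of 0.90 and 0.91.

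The sequences before the starts of these 2 genes are shown because Inhba and Tgfb1 had the largest log2 fold changes among the members. Each holds the 250 bases before the annotated start on the plus strand, from RefSeq (GRCm38.p6, 6 of 10 members matched), and the capitals mark matches to TATAAA or GGGCGG on either strand.
Inhba, chr13:16011601-16011850: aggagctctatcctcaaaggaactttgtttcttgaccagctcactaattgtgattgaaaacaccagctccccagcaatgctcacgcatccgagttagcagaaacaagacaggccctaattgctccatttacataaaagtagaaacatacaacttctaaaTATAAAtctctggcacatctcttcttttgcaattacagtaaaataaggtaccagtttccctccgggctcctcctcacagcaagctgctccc
Tgfb1, chr7:25686752-25687001: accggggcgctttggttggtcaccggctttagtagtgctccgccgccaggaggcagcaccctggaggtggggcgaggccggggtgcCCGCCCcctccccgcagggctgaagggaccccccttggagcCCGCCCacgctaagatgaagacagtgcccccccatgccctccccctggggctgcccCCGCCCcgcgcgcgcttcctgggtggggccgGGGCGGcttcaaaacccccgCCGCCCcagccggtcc

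The 2 windows differed in base composition. GC content was 43.2% before Inhba and 75.2% before Tgfb1, beside a median of 52.4% over all promoter windows of this length. The Inhba window held 1 match to TATAAA (the TATA box), which 12.4% of the 32851 windows held, and the Tgfb1 window held 5 matches to GGGCGG (the GC box), which 32.7% of windows held. Neither window held the SMAD box CAGAC (42.2% of windows) or the AP-1 motif TGANTCA (6.75% of windows). All 4 motifs were searched on both strands, and each window held matches to only 1 of them. Among the other matched members, GC content was 69.2% before Smad3, 58.4% before Tgfbr2, 62.4% before Tgfbi, and 74.8% and 52.8% before the starts listed for Tgfbr1. These matches describe letters in the window, and no binding was measured.

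The 2 TGF-beta receptor genes lay on opposite sides of no change. Tgfbr1, the type I receptor kinase that phosphorylates SMAD2 and SMAD3, lies on chromosome 4 (47353222 to 47414932, plus strand, mm10). It was at 20.4, 9.62 and 18.8 CPM in young samples A, B and C and at 27.9, 33.8 and 26.1 CPM in the aged samples. The ages did not overlap, and young B was the lowest sample. The mean was 16.2 ± 5.79 CPM in the young group and 29.2 ± 4.02 CPM in the aged group, which is a log2 change of 0.85 (SE 0.26, 95% interval 0.26 to 1.43). Tgfbr1 narrowly missed the threshold (edgeR adjusted p = 0.0502), and the adjusted p was 0.0183 with DESeq2 and 0.0273 with limma-voom.

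Tgfbr2, the type II receptor that binds the TGF-beta ligand first, lies on the minus strand of chromosome 9 (116084293 to 116175361). Its level was 33.5, 46.4 and 32.3 CPM in young and 24.4, 30.95 and 29.3 CPM in aged samples A, B and C. Each aged sample was below each young sample, but the gap between aged B and young C was small. The mean was 37.4 ± 7.82 CPM in the young group and 28.2 ± 3.38 CPM in the aged group. The log2 fold change was -0.41 (SE 0.19, 95% interval -0.83 to 0.02) and was not called (edgeR adjusted p = 0.164).

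Smad3, the receptor-activated SMAD that carries the TGF-beta and activin signal to the nucleus, lies on chromosome 9 (63646767 to 63757995, minus strand). It was the least abundant member per length, with 53 to 150 counts in a sample. The level was 6.14, 3.11 and 4.62 CPM in young and 9.39, 9.55 and 7.35 CPM in aged samples A, B and C, and the ages did not overlap. The mean was 4.62 ± 1.52 CPM in the young group and 8.76 ± 1.23 CPM in the aged group. The log2 fold change of 0.92 (SE 0.29, 95% interval 0.28 to 1.56) narrowly missed the threshold (edgeR adjusted p = 0.0505), and the adjusted p was 0.0272 with DESeq2 and 0.0256 with limma-voom.

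Smad7, the inhibitory SMAD that TGF-beta induces and that blocks its type I receptor, lies on chromosome 18 (75367529 to 75395936, plus strand). Young samples A, B and C had 9.74, 12.1 and 6.74 CPM and aged samples had 17.8, 12.0 and 13.2 CPM. The ages overlapped, since aged B was just below young B. The log2 fold change was 0.58 (SE 0.26, 95% interval 0.01 to 1.16, edgeR adjusted p = 0.141). Smad7 passed only with limma-voom among the alternatives run (adjusted p = 0.0411).

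Tgfbi encodes a secreted matrix protein named for its induction by TGF-beta, and it lies on chromosome 13 (56609523 to 56639563, plus strand). It was the most abundant member per length, at position 70 by mean CPM among genes tested in young samples and 67 in aged samples. The level was 1706, 2044 and 1919 CPM in young and 2902, 1732 and 2043 CPM in aged samples A, B and C. Aged A was the highest of all samples, and the other aged samples lay within the young range. The mean was 1889 ± 171 CPM in the young group and 2225 ± 606 CPM in the aged group, a log2 change of 0.24 (SE 0.22, 95% interval -0.25 to 0.72) that was not called (edgeR adjusted p = 0.475). Without aged A, the log2 fold change was 0.00088.

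Il10 lies on chromosome 1 (131019845 to 131024975, plus strand). It was at 22.4, 43.5 and 43.3 CPM in young and 25.8, 44.3 and 36.9 CPM in aged samples A, B and C, from 368 to 742 counts in a sample. Within each age, set A was the lowest, and the ranges of the ages overlapped almost fully. The mean was 36.4 ± 12.1 CPM in the young group and 35.7 ± 9.31 CPM in the aged group. The log2 fold change was -0.03 (SE 0.28, edgeR adjusted p = 0.955), and its 95% interval ran from -0.64 to 0.58. The interval therefore includes changes of either sign, and the sign turned in 3 of the 6 fits with 1 sample left out.

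Il10ra, the chain that binds IL-10, lies on the minus strand of chromosome 9 (45253837 to 45269150). It was at 54.8, 68.4 and 46.0 CPM in young and 98.6, 69.9 and 87.5 CPM in aged samples A, B and C. The ages did not overlap, although aged B was only just above young B. The mean was 56.4 ± 11.3 CPM in the young group and 85.3 ± 14.5 CPM in the aged group. The log2 fold change of 0.60 (SE 0.20, 95% interval 0.16 to 1.03) was not called (edgeR adjusted p = 0.0601), and the adjusted p was 0.0354 with DESeq2 and 0.0121 with limma-voom.

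Il10rb, the chain that the IL-10 receptor shares with the receptors for IL-22 and interferon lambda, lies on chromosome 16 (91406164 to 91425835, plus strand). It was at 366, 376 and 426 CPM in young and 479.7, 604 and 659 CPM in aged samples A, B and C. All aged samples were above all young samples. The mean rose from 389 ± 31.8 to 581 ± 92.0 CPM, a log2 change of 0.58 (SE 0.18, 95% interval 0.18 to 0.97, edgeR adjusted p = 0.0485). This call lay close to the threshold, and of the 6 edgeR fits with 1 sample left out it was made only without aged A. The adjusted p without 1 sample ran from 0.0373 to 0.181. Exons of Il10rb share 569 bases with Gm21970 on the same strand in the annotation used here for overlaps and exon lengths (GENCODE M21, not the release the authors counted on), and Gm21970 was not in the count table. The exons of the other 9 members overlapped no other gene.

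**Figure D2:**
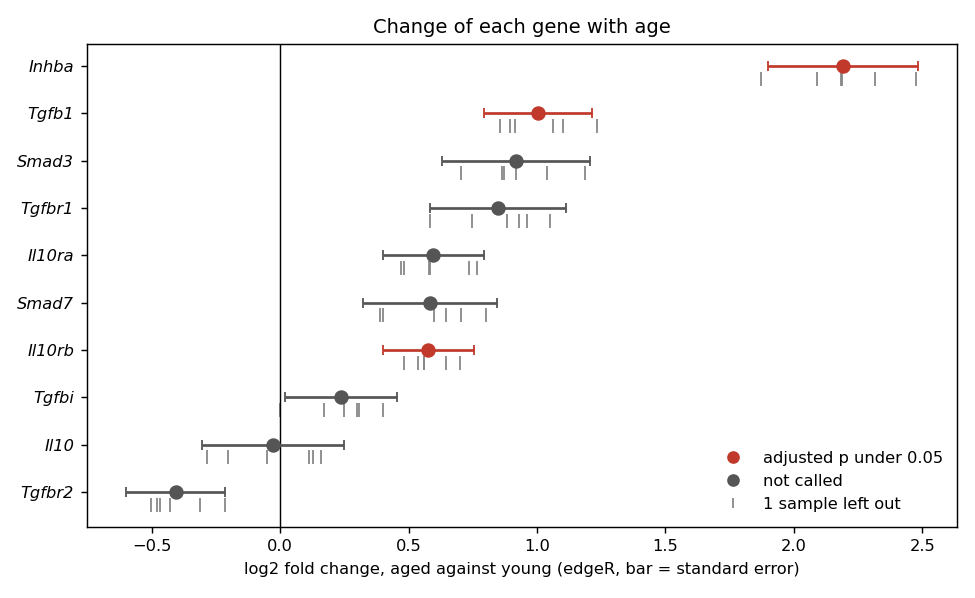
Log2 fold change of each gene, aged against young (edgeR), with bars of ± 1 standard error, red points for an adjusted p under 0.05 and grey ticks for the fits with 1 sample left out. Inhba at 2.19 and Tgfb1 at 1.003 had the largest values, Il10 sat at -0.03 with ticks on both sides of 0, and Tgfbr2 was at -0.41 with every tick below 0.

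Levels of different genes were compared per length, as CPM per kilobase of exon. Tgfbi had the highest level in young samples, at 696 ± 63.0 CPM per kilobase, and Il10rb was next at 211 ± 17.2. Inhba at 28.1 ± 4.23, Il10 at 27.8 ± 9.27 and Tgfb1 at 26.4 ± 6.64 CPM per kilobase followed, and neighbours among these 3 were not separated beyond their spread in young samples. Il10ra was at 16.1 ± 3.22 CPM per kilobase, above Tgfbr2 at 4.57 ± 0.95.

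Tgfbr1 at 2.53 ± 0.90 and Smad7 at 2.18 ± 0.62 CPM per kilobase were not separated from each other in young samples, and Smad3 was lowest at 0.91 ± 0.30. In aged samples, Inhba at 129 ± 52.6 and Tgfb1 at 52.8 ± 9.28 CPM per kilobase both stood above Il10 at 27.2 ± 7.10. Il10 and Il10ra (24.4 ± 4.15 CPM per kilobase) overlapped, as they also did in young samples. Tgfbr1, at 4.56 ± 0.63 CPM per kilobase in aged samples, moved ahead of Tgfbr2 at 3.45 ± 0.41, which in turn was not separated from Smad7 at 3.27 ± 0.70. The order was otherwise the same in both ages.

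**Figure D3:**
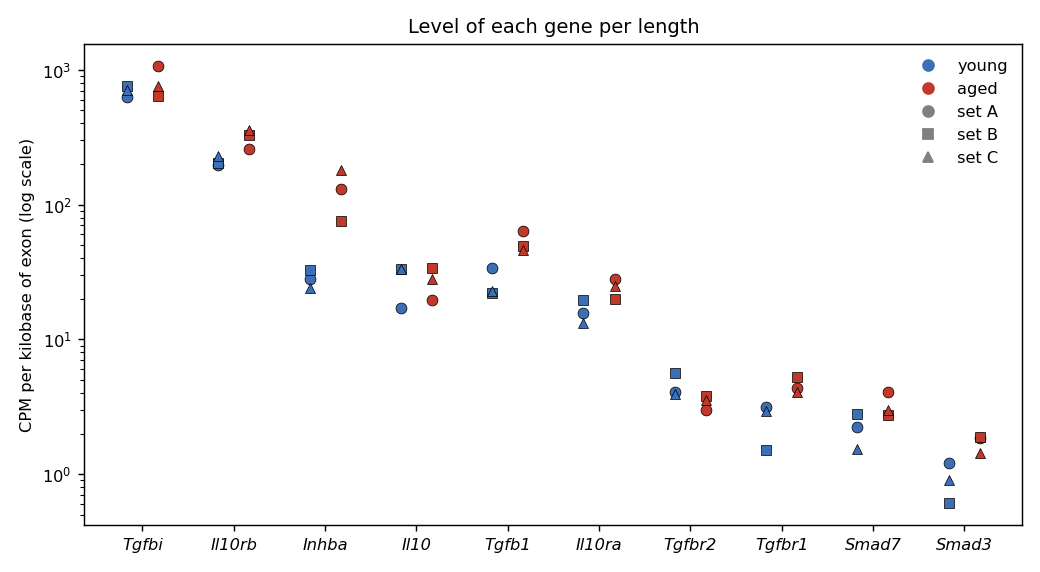
Level of each gene per length (CPM per kilobase of exon, log scale) in each young (blue) and aged (red) sample, ordered by the young mean, with marker shapes for the sets. Tgfbi and Il10rb were highest in both ages, and the aged samples of Inhba (129 ± 52.6) and Tgfb1 (52.8 ± 9.28) lie above Il10.

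Ratios of 2 members within a sample do not depend on library scaling, and the pairs were chosen after the values had been seen. The count ratio of Tgfbr1 to Tgfbr2 was 0.607, 0.207 and 0.581 in young and 1.14, 1.09 and 0.89 in aged samples A, B and C. The ages did not overlap, and the geometric means differed by 2.47-fold (two-sided exact permutation test on log2 ratios, p = 0.1, the smallest p that 3 against 3 samples can give). Inhba over Tgfb1 was 2.40, 4.34 and 3.07 in young and 6.03, 4.46 and 11.6 in aged samples. This ratio was higher in every aged sample by a narrow margin in aged B, with a 2.14-fold difference (exact permutation p = 0.1).

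The ratio of Smad3 to its inhibitory counterpart Smad7 was 0.52 ± 0.23 in the young group and 0.63 ± 0.15 in the aged group, and the ages overlapped (exact permutation p = 0.7). Il10ra over Il10rb was also overlapping, at 0.15 ± 0.04 and 0.15 ± 0.05 (exact permutation p = 0.9). Il10 over Il10ra was 0.66 ± 0.27 in the young group and 0.44 ± 0.19 in the aged group, with overlap (exact permutation p = 0.4).

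**Figure D4:**
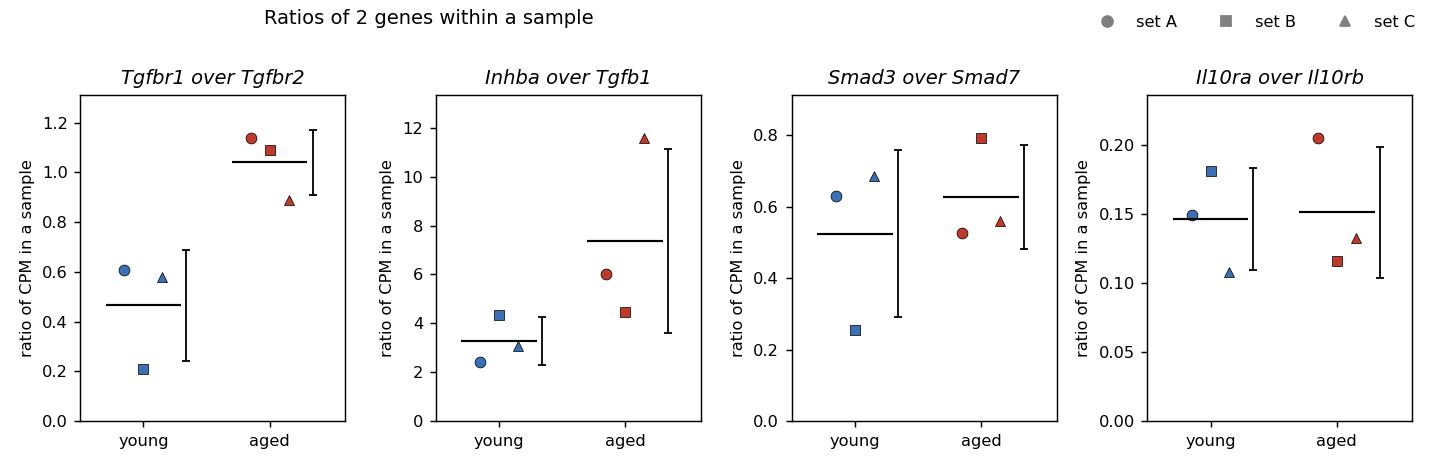
Ratio of 2 genes' CPM within each sample, for 4 pairs, with marker shapes for the sets, horizontal lines for means and brackets for ± SD (n = 3; axes start at 0). Tgfbr1 over Tgfbr2 is at least 0.89 in every aged sample and at most 0.607 in young samples, while Smad3 over Smad7 and Il10ra over Il10rb overlap.

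The other genes of both pathways were read from lists of named genes, and the counts in each list stand beside 9.73% of all genes tested called higher and 7.97% called lower. Among the 14 tested genes of TGF-beta latency and activation, 4 were called higher and 0 lower (edgeR; 1 gene lower at an unadjusted p under 0.05), and the median log2 fold change was 0.65. The genes that rose were Thbs1, the gene of thrombospondin, which activates latent TGF-beta, Itgb8, an integrin chain that does so too, the convertase Furin that cleaves the TGF-beta precursor, and Plat, the tissue plasminogen activator. Thbs1 was at 6953, 2011 and 2597 CPM in young and 18894, 15196 and 16473 CPM in aged samples A, B and C (log2 fold change 2.13, edgeR adjusted p = 0.0115). Without young A the log2 fold change of Thbs1 was 2.88. Without young C it was 1.91 and was not called (edgeR adjusted p = 0.0688). Furin was at 91.7, 44.7 and 42.9 CPM in young and 179, 109.6 and 107 CPM in aged samples (log2 fold change 1.14, edgeR adjusted p = 0.0331).

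The number of latency and activation genes called higher fell to 0 without young C, to 1 without young B and to 2 when any aged sample was left out. As with Tgfb1, set A had the highest Thbs1 and Furin of each age. Itgb8 rose by 2.66 on the log2 scale from a low level of 0.42 ± 0.22 CPM to 2.69 ± 1.82 CPM (edgeR adjusted p = 0.0223), and limma-voom did not call it (adjusted p = 0.058). It held 9, 3 and 9 counts in young and 34, 73 and 17 counts in aged samples, and passed the filter on low counts only through the aged group. Plat rose by 1.04, from 2.64 ± 0.64 to 5.44 ± 0.81 CPM (edgeR adjusted p = 0.0379). Of the 4 tested genes of other family ligands, Gdf3, which encodes a TGF-beta family ligand, fell from 101.9 ± 18.6 to 43.7 ± 8.85 CPM (log2 fold change -1.22, edgeR adjusted p = 0.0067), and 0 were called higher (0 at an unadjusted p under 0.05). Gdf3 was called in all 6 fits with 1 sample left out.

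Among the 7 tested family receptors beside the members, 1 was called higher and 0 lower (edgeR; 0 lower at an unadjusted p under 0.05), and the median log2 fold change was 0.02. It was Bmpr1a, a type I receptor for bone morphogenetic proteins, which was scarce at 0.55, 0.12 and 0.07 CPM in young and 3.99, 3.38 and 4.01 CPM in aged samples A, B and C (edgeR adjusted p = 0.00488). Its young samples held only 10, 2 and 1 counts, so it passed the filter on low counts only through the aged group, and with at least 10 counts required in every sample 0 receptors were called. Of 10 tested SMADs and partners, the co-activator Crebbp rose by 0.71 on the log2 scale (edgeR adjusted p = 0.0351) and 0 fell (0 at an unadjusted p under 0.05), and the list had a median of 0.36. This 1 in 10 stands beside 9.73% of all genes called higher, the list had 0 called without young B, young C or aged C, and Crebbp was called in 2 of 6 fits with 1 sample left out and not with the set letter as a block (adjusted p = 0.0504). Inhibitors gave 4 genes higher and 0 lower of 14 tested (median 0.32; 0 lower at an unadjusted p under 0.05). These were Fst, the gene of follistatin that binds activin, Skil and Ski, which repress SMAD targets, and the ubiquitin ligase Smurf2. Smurf2 was not called with the set letter as a block (edgeR adjusted p = 0.0538) or with no filter on low counts (edgeR adjusted p = 0.0581).

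Fst was at 1.22, 2.99 and 2.44 CPM in young and 6.31, 6.56 and 11.6 CPM in aged samples A, B and C, a log2 change of 1.88 (edgeR adjusted p = 0.0135). All aged samples of Fst lay above all young ones, as they did for Inhba. The ratio of Inhba to Fst was 92.9 ± 46.3 in the young group and 101.6 ± 29.3 in the aged group, and the ages overlapped (exact permutation p = 0.7). The inhibitor list gave 0 called higher without young C or without aged C, 2 without young B or without aged A and 6 without young A. The log2 fold changes of Skil, Smurf2 and Ski were 0.81, 0.72 and 0.72.

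TGF-beta target genes gave 7 higher and 0 lower of 17 tested (edgeR; 0 lower at an unadjusted p under 0.05), and the median log2 fold change was 0.72. Among them were Thbs1, Skil, Smurf2 and Ski, which other lists also hold, and Id1 and Fn1. Id1, which bone morphogenetic proteins also induce, rose from 5.30 ± 0.93 to 14.2 ± 4.35 CPM (log2 fold change 1.42, edgeR adjusted p = 0.0122). Fn1, the gene of fibronectin, rose from 315 ± 29.3 to 615 ± 78.1 CPM (log2 fold change 0.96, edgeR adjusted p = 0.00878). The target counts moved with the samples used, and without young C 0 of these genes were called, without young B 4 and without aged C 3.

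**Figure D5:**
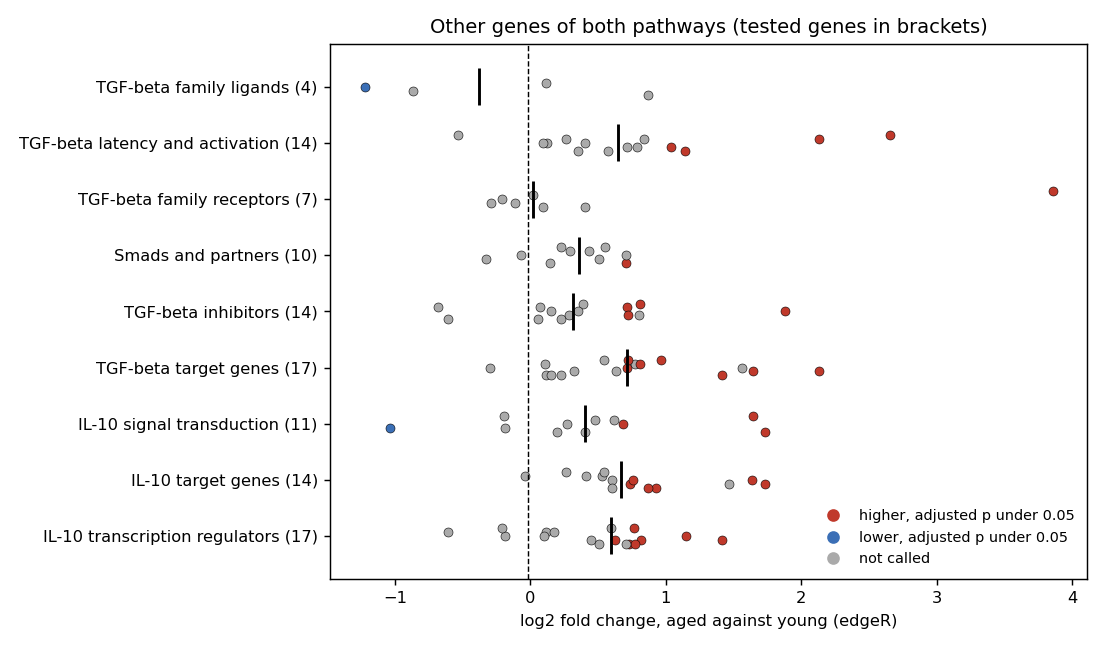
Log2 fold change (aged against young, edgeR) of each tested gene in 9 of the 10 lists of other IL-10 and TGF-beta pathway genes (the IL-10 family list, with 1 gene tested, is not drawn), with the number tested in brackets, red for called higher, blue for called lower, grey for not called and a black bar for the list's median. The blue points are few, Gdf3 among them, and the medians lie above 0 in every list but the family ligands (-0.38).

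For the IL-10 pathway, 11 signal transduction genes were tested, of which 3 were called higher and 1 lower, and the median log2 fold change was 0.40. Stat3, the main transcription factor of IL-10 signalling, was at 168, 107 and 105 CPM in young and 205, 198 and 206 CPM in aged samples A, B and C (log2 fold change 0.68, edgeR adjusted p = 0.0423). The feedback inhibitor Socs3 was at 898, 541 and 436 CPM in young and 2648, 1361 and 2215 CPM in aged samples (log2 fold change 1.73, edgeR adjusted p = 0.00898). Both genes lay above every young sample in every aged sample. Stat3 was called in only 1 of 6 fits with 1 sample left out (edgeR adjusted p up to 0.174) and not with no filter on low counts (0.0519), and Plat, Smurf2 and Sp3 were likewise called in 1 of 6, and Furin, Ski, Il1rn, Atf1 and Cebpb in 2 of 6.

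Socs1, a related inhibitor of cytokine receptors, rose by 1.65 on the log2 scale (edgeR adjusted p = 0.0172). It was called in 3 of 6 fits with 1 sample left out, with log2 fold changes from 1.37 to 2.26 (edgeR adjusted p up to 0.0912). IL-10 target genes gave 6 higher and 0 lower of 14 tested (edgeR; 0 lower at an unadjusted p under 0.05; median 0.67). They were Socs3, the TNF receptor Tnfrsf1b (1.64), the NF-kappaB modulator Bcl3 (0.93), the transcriptional co-regulator Sbno2 (0.87), the IL-4 receptor chain Il4ra (0.76) and the IL-1 receptor antagonist Il1rn (0.73), with log2 fold changes in brackets. Tnfrsf1b was at 261 ± 17.7 CPM in the young group and 814 ± 90.7 CPM in the aged group (edgeR adjusted p = 0.00127). This list gave 3 called higher without young B or without aged C and 2 without young C, and the signal transduction list gave 0 without young C and 1 without young B or without aged C. Several of these genes also respond to signals other than IL-10.

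Of 17 tested genes that regulate Il10 transcription, 7 were called higher and 0 lower (edgeR; 0 lower at an unadjusted p under 0.05), and the median log2 fold change was 0.59. The largest were Nfkb1 (1.41), an NF-kappaB subunit, and Prdm1 (1.146), the gene of the repressor BLIMP1, and the others were Crem, Mapkapk2, Cebpb, Atf1 and Sp3, with 0.63 to 0.82. Nfkb1 was at 21.1 ± 2.63 CPM in the young group and 56.1 ± 8.59 CPM in the aged group (edgeR adjusted p = 0.00242). The number called was 3 without young B and 2 without young C or without aged C. Beside these, Il10 was at 36.4 ± 12.1 and 35.7 ± 9.31 CPM. Of 11 listed IL-10 family cytokines and receptors, 5 were in the table and only Il22ra2, the gene of the soluble IL-22 receptor, passed the filter on low counts, at 0.62 ± 0.24 CPM in the young group and 0.87 ± 0.71 CPM in the aged group (edgeR adjusted p = 0.667).

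Depth was similar between samples, with totals from 15270103 to 17927483 expected counts, and 1 count was worth 0.0553 to 0.0701 CPM. The 10 macrophage markers summed to 28356 to 43642 CPM in young and 20515 to 26167 CPM in aged samples, most of it from Lyz2 (means of 29834 and 18621 CPM, edgeR adjusted p = 0.0753), and 4 of the 10 had a log2 fold change above 0. Of the sort markers, Itgam (CD11b) rose by 0.99 and Adgre1 (F4/80) fell by 0.69 on the log2 scale (edgeR adjusted p = 0.00735 and 0.0292), while Ptprc (CD45) and Fcgr1 (CD64) were not called. Of 11 tested neutrophil markers 4 were called higher, with a summed level of 579 to 1026 CPM in the young group and 789.5 to 1431 CPM in the aged group, and Ly6g was near 8 CPM in both. Platelet markers summed to 1124 to 1699 CPM in the young group and 1417 to 3910 CPM in the aged group (1 of 2 tested called higher, Ppbp). Ppbp went from 412 ± 99.9 CPM in the young to 1671 ± 957 CPM in the aged group. The other tested platelet marker, Pf4, was at 1094 ± 239 and 885 ± 329 CPM, and its log2 fold change of -0.31 was not called. Of 5 tested erythroid genes, 4 were called lower, with sums of 153 to 490.1 CPM and 41.8 to 152 CPM. The part of neutrophils, platelets and erythroid cells in the results of Tgfb1 and Inhba was not tested.

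Keratinocyte markers summed to 2.05 to 3.37 CPM in young samples, to 3.77 CPM at the lowest in aged samples and to 180.3 CPM in aged B, and both tested markers, Krt14 and Sfn, were called higher by edgeR. Krt14 held 0, 3 and 1 counts in young and 11, 1259 and 14 counts in aged samples A, B and C, so it passed the filter on low counts only through the aged group and its level was set by aged B. Krt1 was at 0 counts in every young sample. Fibroblast markers summed to 32.6 to 46.7 CPM in the young group and 22.0 to 132 CPM in the aged group, again with the highest value in aged B, and 0 of 8 were called (edgeR; 0 at an unadjusted p under 0.05). Mast cell and basophil markers summed to 26.8 to 97.8 CPM in young samples and to 67.5, 1.02 and 0.93 CPM in aged A, B and C (0 of 6 called by edgeR, 0 at an unadjusted p under 0.05). Aged A lay within the young range here, and aged B and C lay below it. Aged A also had the highest Tgfbi and Tgfb1 of the aged samples, and without it their log2 fold changes were 0.00088 and 0.85 (edgeR adjusted p = 0.998 and 0.0363). Dendritic cell markers summed to 16.4 to 55.4 and 31.7 to 93.9 CPM (0 of 5 called by edgeR, 1 at an unadjusted p under 0.05). Lymphocyte markers stayed at or below 6.69 CPM in every sample (1 of 3 called lower, Cd4, from 2.27 to 0.66 CPM). All aged samples lay below all young samples for 2 of 3, Cd4 and Nkg7, while Trac had a log2 fold change of 0.91 and was not called. Cd4 held 41, 48 and 26 counts in young and 5, 18 and 8 counts in aged samples. Nkg7 held 29, 18 and 22 counts in young and 5, 2 and 11 counts in aged samples. Both passed the filter on low counts only through the young group. Endothelial markers summed to 12.3 to 13.2 CPM in the young and 27.0 to 33.1 CPM in the aged group, and 1 of 4 was called higher, Pecam1 (log2 fold change 1.69, edgeR adjusted p = 0.0022). Most of this sum was Pecam1, at 8.03 ± 1.82 CPM in the young and 25.9 ± 2.08 CPM in the aged group. The other tested markers were not called, with log2 fold changes of 1.37 (Egfl7), -0.40 (Kdr) and -0.38 (Vwf). The part of these cell types in the results was not tested. Inhba was at its lowest among aged samples in aged B. Without aged B, its log2 fold change was 2.47 (edgeR adjusted p = 0.00053) and that of Tgfb1 was 1.06 (edgeR adjusted p = 0.0217).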

How the data were processed

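RNA-sequencing of sorted Day 3 wound macrophages from 3 young and 3 aged samples was analysed. The authors aligned paired reads with STAR 2.7.3a to mm10 and quantified Ensembl 102 transcripts in Partek Flow. They deposited expected counts per gene, without normalisation, for genes totalling at least 10. Whether counting used strand is not given in the sources used here. A second deposited table, of the authors' DESeq2 comparison (scaled counts, p-values and fold changes), was not used.

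Expected counts were rounded and tested in R 4.3.3 with edgeR 4.0.16 (TMM scaling with factors of 0.904 to 1.11, filterByExpr, quasi-likelihood test, Benjamini-Hochberg adjustment over 11878 genes), not as the raw counts first planned for. Standard errors were the log2 fold change over the square root of F. DESeq2 1.42.0, limma-voom 3.58.1, other scaling and filters, blocking on the set letter and dropping each sample in turn were alternatives. Depth was 15270103 to 17927483 counts per sample. Replicates of an age differed by more than counting noise. Exon lengths were those of GENCODE M21, and plots used matplotlib 3.10.9.

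All members were named. Pathway genes were named when called, or else as a list's highest and lowest, and markers when they defined a cell type or were called. Some called pathway genes are not reported here. Members and lists were chosen with earlier results of these data known. The method was tested on simulated data.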

Additional observations from a re-analysis of the deposited data

How the results depend on the processing

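Inhba was called under every alternative run, and 0 members were called lower under any. The number of members called higher was 3 in the main comparison, 6 with DESeq2, 7 with limma-voom, 5 with DESeq2 size factors in edgeR, 4 with at least 10 counts in every sample and 2 with no filter, and 1 to 4 when 1 sample was left out (1 without young B or without young C). Genes called were 2103, but 3646 with limma-voom, 1044 with the requirement of over 2-fold, and 218 (without young C) to 2702 (without young A) when 1 sample was left out, with 765 without young B, 1385 without aged A and 545 without aged C. The log2 fold change of Il10 turned positive without young B (0.13), without young C (0.11) and without aged A (0.16), within -0.28 to 0.16 over the fits with 1 sample left out, and the cause was not tested. With the set letter as a replicate block, 4 members (Il10rb, Tgfb1, Smad3 and Inhba) and 2114 genes were called. Deviations of samples with the same letter correlated at 0.18 for A, -0.02 for B and 0.11 for C, and not every sample correlated best with its own letter, so the letters were not read as pairs. Alternatives for the named pathway genes, and the ratios, were added after seeing the data. With 3 samples an age, calls near the threshold (Il10rb, Smad3, Tgfbr1 and Il10ra) moved with the setting, and Smad3, at 53 to 150 counts, had the lowest depth.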
